A study of Mus musculus with 3 samples.

Results

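The genes described here carry vesicles between the endoplasmic reticulum (ER) and the Golgi apparatus. They were taken by name from the array's gene annotation: coatomer subunits (Cop names), Sec13, Sec22, Sec23, Sec24 and Sec31 genes, Trappc genes, Tmed genes and Arf1 to Arf6. The rule found 45 genes with 84 probes, of 27745 gene names with 41174 probes on the array. They fall into 8 COPI, 10 COPII, 8 TRAPP, 10 p24 (Tmed), 6 Arf and 3 Sec22 genes. A probe counted as measured where the software marked both of its channels as well above background, and 43 of the 45 genes had a measured probe on every array. Sec31b, a paralog of the COPII cage subunit Sec31a, and Tmed6, a p24 family member, were measured on none.

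The cells were cultured stromal cells from lymph nodes of BALB/c mice. By lipofection they received 400 pmol of an siRNA, either a control or one against Eif4g3, had a change of medium at 24 h, and were harvested at 48 h. For each siRNA, 7 plates were pooled before lysis, so each siRNA is represented by 1 pool of cells, and the labels do not give the age or sex of the mice. Lysates were separated on a sucrose gradient of 10% to 60% and combined into a top, a light polysome and a heavy polysome fraction. Each fraction went onto 1 array of 2 colours, with RNA of Eif4g3 siRNA cells in red (Cy5) and RNA of control siRNA cells in green (Cy3) on all 3 arrays. There was no dye swap and no replicate, so no p-value was computed. Unfractionated RNA was not analysed here, so a ratio in a fraction holds both the amount of an mRNA and its place in the gradient. In bulk RNA of pooled cells, fewer cells of a type and less RNA per cell cannot be told apart either.

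COPII coats form vesicles that leave the ER: Sec23 and Sec24 make the inner layer that binds cargo, and Sec13 with Sec31 makes the outer cage. COPI coats, built from coatomer after an Arf GTPase has recruited it, return proteins from the Golgi to the ER. The p24 proteins of the Tmed family select cargo in both coats. TRAPP complexes tether vesicles and activate Rab GTPases, and the SNARE Sec22b takes part in fusion. Eif4g3 encodes a scaffold of the complex that brings capped mRNAs to the ribosome, and mRNAs that carry more ribosomes sediment further into the gradient.

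Under the processing used here, 3 of the 43 measured genes passed a 2-fold difference in any fraction or between fractions: Copb1, Sec31a and Trappc2. Of all genes, 0.688% to 1.51% passed 2-fold in a single one of these comparisons. The share of all genes past 2-fold in any of them was not counted. The promoters of Copb1, Sec31a and Trappc2 are shown for this reason, as the 250 bases before the gene start in the RefSeq table of GRCm38.p6. Capitals mark matches, on either strand, to CCACG or to TGACGTGG, letters used here for the unfolded protein response element, which holds CCACG on its other strand. The Copb1 window is chr7:114254681-114254930 on the minus strand. The Sec31a window, at the more upstream of 2 listed starts, is chr5:100416235-100416484 on the minus strand, and the Trappc2 window is chrX:166440505-166440754 on the plus strand.
Copb1: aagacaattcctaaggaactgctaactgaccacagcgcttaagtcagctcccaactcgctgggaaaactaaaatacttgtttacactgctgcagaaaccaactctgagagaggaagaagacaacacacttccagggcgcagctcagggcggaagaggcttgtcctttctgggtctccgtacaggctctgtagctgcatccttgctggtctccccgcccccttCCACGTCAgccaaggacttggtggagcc
Sec31a: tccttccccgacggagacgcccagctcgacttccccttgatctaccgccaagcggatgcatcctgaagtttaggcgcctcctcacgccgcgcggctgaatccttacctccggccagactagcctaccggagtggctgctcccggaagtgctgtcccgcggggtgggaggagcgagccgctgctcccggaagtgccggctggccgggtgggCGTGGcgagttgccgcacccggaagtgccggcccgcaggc
Trappc2: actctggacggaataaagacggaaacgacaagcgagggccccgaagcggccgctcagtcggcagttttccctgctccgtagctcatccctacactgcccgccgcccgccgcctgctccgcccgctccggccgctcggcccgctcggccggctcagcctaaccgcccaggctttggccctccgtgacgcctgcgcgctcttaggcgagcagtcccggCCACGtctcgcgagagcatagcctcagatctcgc
A promoter was found for 40 of the 45 genes, with 46 windows in all. TGACGTGG was in 3 of the 46 windows (6.52%), those of Arf1, Copb1 and Sec24d, against 0.563% of 32851 windows of all genes. CCACG, matches inside TGACGTGG included, was in 60.9% of the members' windows and in 28.3% of all windows, and CCAAT in 39.1% and 33.8%. These matches describe letters in the windows and say nothing about binding.

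Eif4g3 itself was lower in the siRNA channel on every array. Its log2 ratio, siRNA channel over control channel, was -0.43 ± 0.16, -1.06 ± 0.16 and -1.77 ± 0.19 on the top, light and heavy array. Here and below, ± is the scanner software's error of its own log ratio, combined over the probes of a gene. It was not rescaled to the ratios given here, which had slopes of 0.571 to 0.721 on the software's ratio. It holds for the spot and not for a repeat of the experiment. Measured probes made up 34.8% of the top array, 50.2% of the light array and 51.6% of the heavy array. The 75th percentile of the raw mean spot signal was 1100 for control and 407 for siRNA on the heavy array. On the light array it was 313 and 725, so the channels differed in opposite directions before normalisation. Ratios were centred by loess within each array, which removes any shift common to all genes. Of 11 markers of fibroblastic stroma, 9 or 10 were measured on each array, with Cxcl13 on none. Of 6 endothelial markers (5 on the array) and 6 leukocyte markers, 0 of each were measured in the top and 2 of each in the light and heavy fractions, and Pecam1, Cdh5 and Ptprc on none. Taken by channel, 4 endothelial markers were above background in the control channel of the heavy array and 2 in the siRNA channel. In the heavy fraction 1 of 4 epithelial markers (Krt18) and 3 of 5 markers of smooth muscle and pericytes were measured.

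In the heavy polysome fraction, most coat genes lay lower with Eif4g3 siRNA, while the TRAPP and p24 genes lay on both sides of 0. The median log2 ratio was -0.30 over the 8 COPI genes, with 7 below 0, and -0.39 over the 9 measured COPII genes, with 8 below 0. It was 0.04 over the 8 TRAPP genes and 0.03 over the 9 measured p24 genes, with 4 of each below 0, and these became -0.13 with median centring and -0.04 with the software's ratio. Over all 14404 genes measured in the heavy fraction the median was -0.01, and 48.3% of genes lay above 0. Past 2-fold were 2 of the 43 members, Copb1 lower and Trappc2 higher, against 0.812% of all genes. That is 1 gene in each direction, too few for a share to be read.

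**Figure D1:**
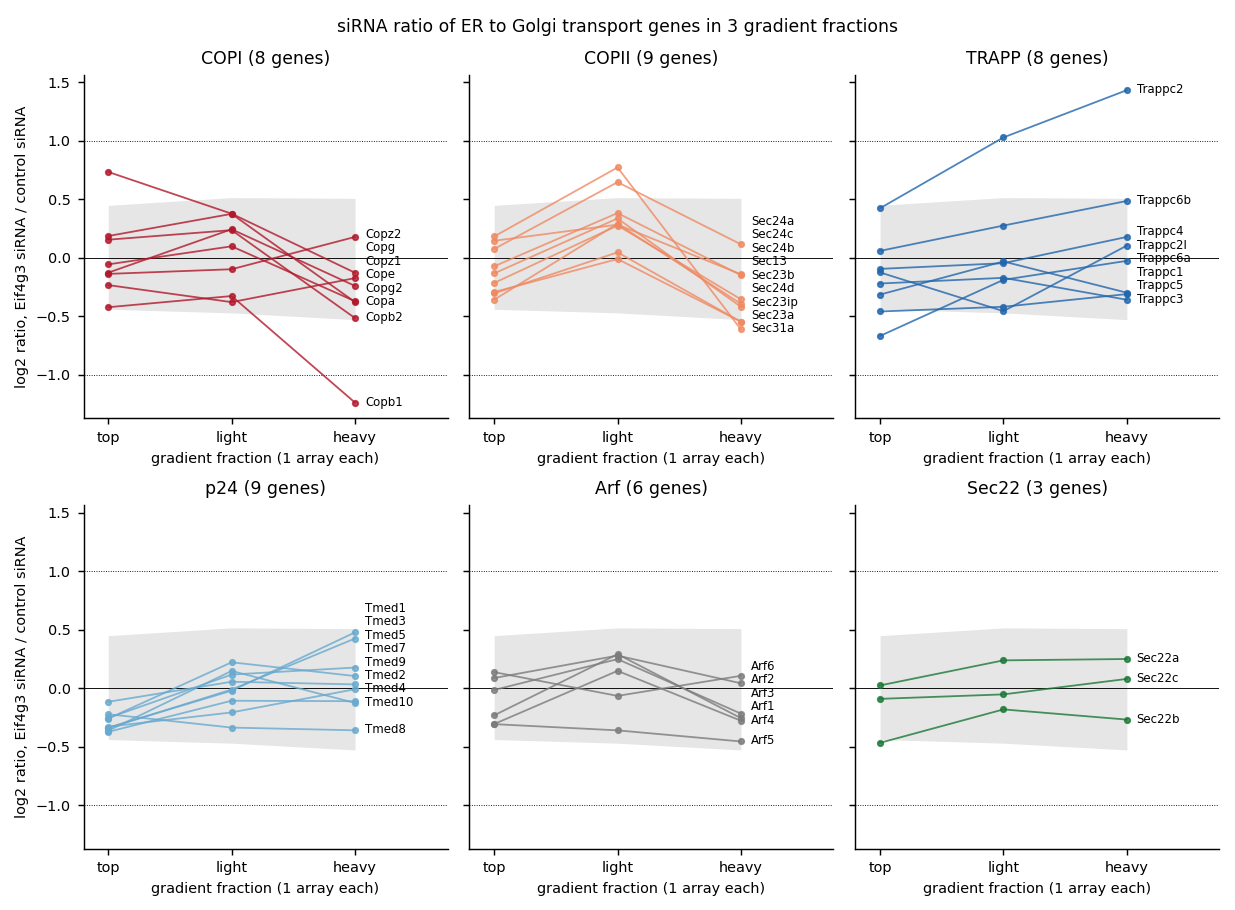
Log2 ratio, Eif4g3 siRNA channel over control channel (y axis) in the top, light and heavy fraction (x axis), 1 line per measured gene and 1 panel per group. Grey marks the range from the 5th to the 95th percentile of all genes and dotted lines mark 2-fold. Copb1 falls below and Trappc2 above the dotted lines in the heavy fraction, and 9 of 9 COPII lines slope up from top to light and down from light to heavy. Most p24 lines also slope up from top to light.

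In the light polysome fraction the COPII genes lay on the other side of 0. Their median was 0.29, with 8 of 9 above 0, from -0.01 for Sec23ip, a protein that binds Sec23, to 0.77 for Sec31a. The COPI median was 0.17, with 5 of 8 above 0. The TRAPP median was -0.11 (6 of 8 below 0), which became 0.08 when arrays were centred on the median in place of loess, and the p24 median was -0.01, which became 0.37. All genes had a median of 0.02 in this fraction. Trappc2 was the 1 member of 43 past 2-fold, against 0.688% of all genes.

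In the top fraction, where mRNAs with few or no ribosomes stay, the p24 genes stood together below 0. All 9 measured p24 genes had a negative ratio, from -0.37 for Tmed4 to -0.12 for Tmed9, with a median of -0.33 beside 0.00 over all 10944 genes measured. The 9 were below 0 under every processing setting that measured them. The TRAPP median was -0.17, the COPII median -0.13 and the COPI median -0.09; the last 2 turned to 0.17 over the 2 genes and 0.02 over the 6 genes that kept a bright probe. No member of 43 passed 2-fold in the top fraction, against 0.694% of all genes.

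Copb1, the beta subunit of coatomer, was the lowest member in the heavy fraction. Its normalised signal, set on 1 scale across arrays, was 309 in control and 231 in siRNA cells in the top, 1025 and 818 in the light, and 2536 and 1076 in the heavy fraction. The siRNA channel was lower in all 3 fractions, and the gap was widest in the heavy fraction. The log2 ratios were -0.42 ± 0.26, -0.33 ± 0.21 and -1.24 ± 0.24, the last a 2.36-fold lower level that ranked 16th from the bottom of 14404 genes. The value came from 1 probe, whose place in mm8 is given as chr7:114007075-114007659 on the minus strand. The other Copb1 probe, at chr7:114028543-114028602, read -0.60 but was not well above background in both channels, and the mean of both probes would be -0.92.

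Trappc2, also named sedlin, is the TRAPP subunit whose human gene is mutated in X-linked spondyloepiphyseal dysplasia tarda, and it was the highest member in the light and heavy fractions. Control signal was 1116, 751 and 674 in top, light and heavy, and siRNA signal was 1499, 1535 and 1820 in the same order. Control signal thus went down and siRNA signal up along the gradient, although with the software's signals the siRNA value of heavy over top was -0.02 on the log2 scale. The log2 ratio was 0.43 ± 0.21, 1.03 ± 0.23 and 1.43 ± 0.25 from top to heavy, the last a 2.70-fold higher level that ranked 8th from the top of 14404 genes. Its 1 probe is given at chrX:161797087-161797146 on the plus strand of mm8. Gene models of mm8 were not used here, so the exon or UTR that the probes of these genes cover is not given.

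Sec31a, the outer cage subunit of COPII, changed side between the polysome fractions. Its signal was 1029 in control and 1168 in siRNA cells in the top, 1601 and 2737 in the light, and 6036 and 3952 in the heavy fraction. The siRNA channel was therefore higher in the light and lower in the heavy fraction. The log2 ratios were 0.18 ± 0.21, 0.77 ± 0.22 and -0.61 ± 0.21, from 1 probe at chr5:100602042-100602101 on the minus strand of mm8.

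**Figure D2:**
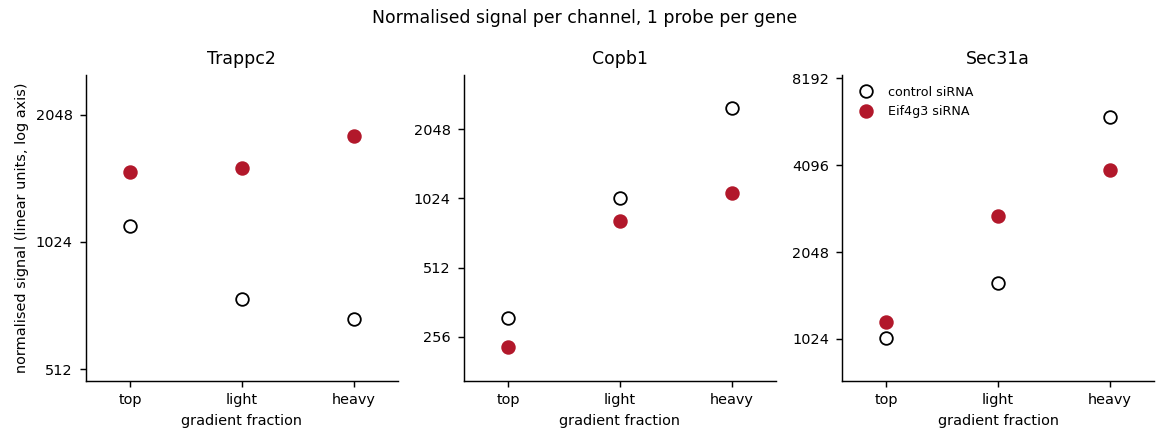
Normalised signal on a log axis (y axis, linear units) of Trappc2, Copb1 and Sec31a in each fraction (x axis), 1 probe per gene and 1 array per fraction, with open points for control siRNA and filled points for Eif4g3 siRNA. Sec31a crosses over, from 1601 control and 2737 siRNA in the light to 6036 and 3952 in the heavy fraction.

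The difference of heavy minus light shows whether the siRNA ratio of an mRNA differed between the polysome fractions, and the coat genes lay below 0 in it. All 9 measured COPII genes had a lower ratio in heavy than in light polysomes, from -1.38 for Sec31a to -0.42 for Sec24c, with a median of -0.59. Of the 8 COPI genes 6 did, with a median of -0.49, and of the 6 Arf genes 5 did, with a median of -0.33. The median of the TRAPP genes was 0.19 (6 of 8 above 0), which turned to -0.23 with median centring, and that of the p24 genes was -0.00, which turned to -0.23. All 13689 genes had a median of -0.02, and 47.1% were above 0. Each of the 9 COPII and of those 6 COPI genes stayed below 0 under all 8 settings.

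Sec31a, at -1.38 ± 0.30, was the 1 member of 43 past 2-fold in heavy minus light, against 0.731% of all genes, and ranked 10th from the bottom of 13689. Copb1 followed at -0.91 ± 0.32. The cargo adaptor Sec24d stood at -0.76 ± 0.29 and the alpha subunit of coatomer, Copa, at -0.75 ± 0.22. The beta-prime subunit Copb2 stood at -0.75 ± 0.29, and Sec23b, which activates the GTPase of the COPII coat, at -0.68 ± 0.21. The zeta subunits Copz1 (0.21 ± 0.29) and Copz2 (0.28 ± 0.29) were the COPI genes above 0, and with median centring they fell below it, at -0.22 and -0.14. Each of these differences except that of Sec31a was under 2-fold.

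Most fibroblastic markers lay below 0 in the heavy fraction and in heavy minus light, as most coat genes did. The fibroblastic median was -0.43 in the heavy fraction, with 7 of 10 below 0. In heavy minus light it was -0.30, with 8 of 9 below 0, from -0.82 for Col1a2 to 0.03 for Thy1. In the light fraction it was 0.03, with 5 of 9 above 0, beside 0.29 for COPII and 0.02 for all genes. The endothelial markers Kdr and Prox1 lay at -0.27 and 0.34 in heavy minus light, and the leukocyte marker Cd3e at 0.15. The 3 measured markers of smooth muscle and pericytes were also below 0 in heavy minus light, Acta2 at -0.44, Myh11 at -0.18 and Cspg4 at -0.11, and above 0 in the light fraction, at 0.33, 0.05 and 0.39. The part of the cell makeup in the coat genes' difference was not tested.

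Heavy minus top uses the same heavy array, so it is not independent of heavy minus light. The COPI median was -0.47 (6 of 8 below 0) and the COPII median -0.23 (9 of 9 below 0), whereas the TRAPP median was 0.25 (7 of 8 above 0) and the p24 median 0.27 (8 of 9 above 0). All 10723 genes had a median of -0.00 and a share above 0 of 49.9%. The COPII value depended on how background was treated: with normexp at offset 0 the median was -0.04, and 4 of 9 genes lay above 0. The COPI, TRAPP and p24 medians kept their sign under all 8 settings, between -0.61 and -0.19 for COPI, 0.15 and 0.38 for TRAPP, and 0.21 and 0.49 for p24. Trappc2, at 1.01 ± 0.33, was the 1 member of 43 past 2-fold, against 1.51% of all genes; it fell to 0.97 with the software's ratio and 0.79 with median centring.

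**Figure D3:**
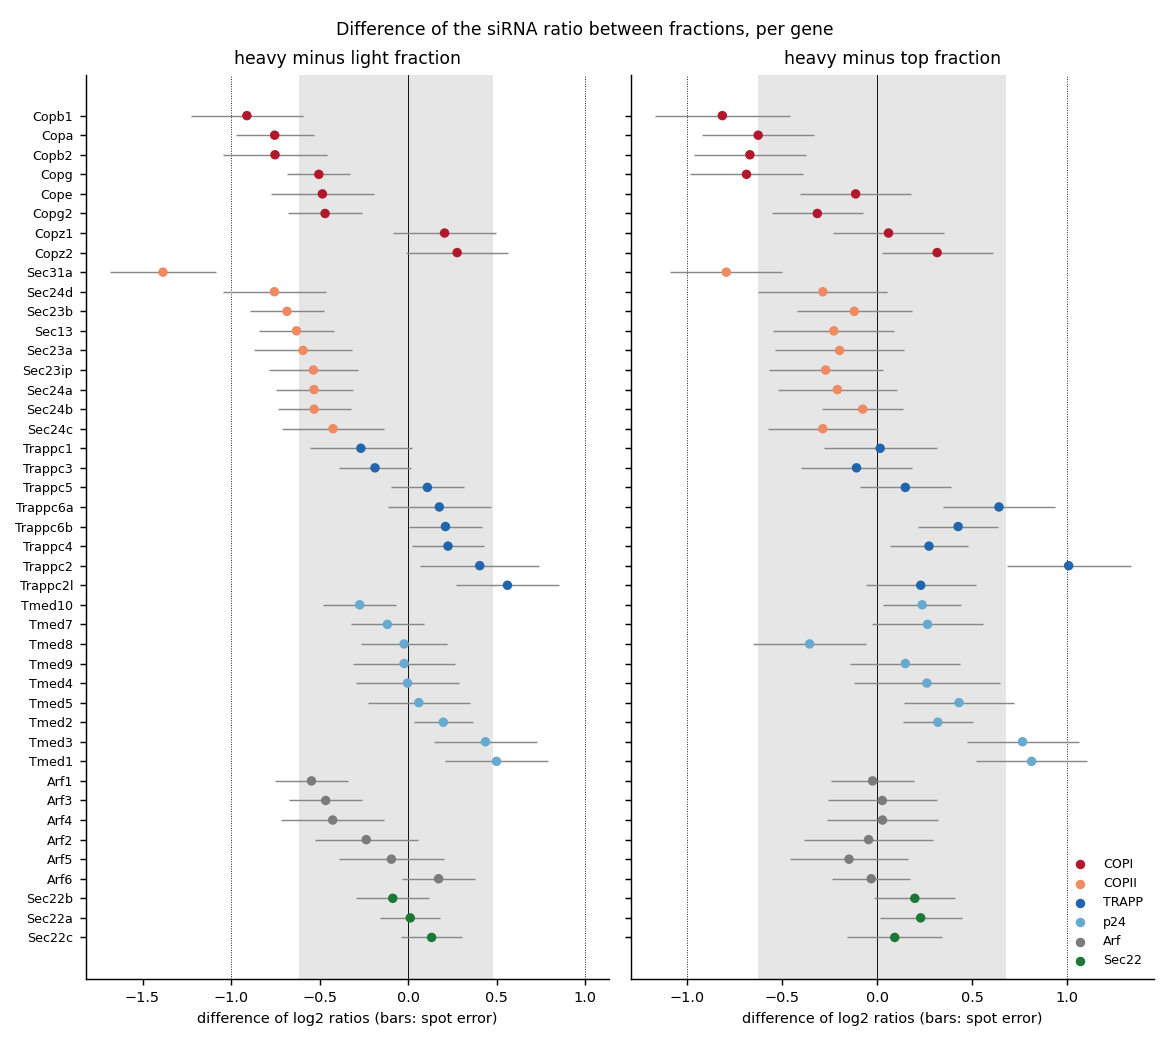
Difference of the log2 ratio between fractions (x axis) for each of the 43 measured genes (y axis), heavy minus light at left and heavy minus top at right, coloured by group. Bars are the spot error, grey marks the 5th to 95th percentile of all genes, and dotted lines mark 2-fold. All 9 COPII points lie left of 0 in both panels, and Sec31a at -1.38 is the only point past 2-fold at left.

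Among the p24 genes, grouped by the Tmed name alone, Tmed1 and Tmed3 had the largest heavy minus top differences under the processing used here. With the software's ratio Tmed4 stood above both, at 1.08. Tmed1 signal was 10660 in control and 8445 in siRNA cells in the top, 13839 and 13639 in the light, and 9356 and 13027 in the heavy fraction. The channels changed order from top to heavy, and the log2 ratio went from -0.34 ± 0.21 through -0.02 ± 0.20 to 0.48 ± 0.21, a difference of 0.81 ± 0.29. Tmed3 ran the same way, with log2 ratios of -0.34 ± 0.21, -0.01 ± 0.20 and 0.43 ± 0.21 and a difference of 0.77 ± 0.29. Tmed8 was the 1 measured p24 gene with a negative value in heavy minus top, at -0.36 ± 0.30, with ratios of -0.22 ± 0.21, -0.34 ± 0.17 and -0.36 ± 0.17. The 6 other measured p24 genes lay between 0.15 for Tmed9 and 0.43 for Tmed5 in heavy minus top. Of these, Tmed10 at 0.24 rested on probes that disagreed, at -0.26 and 0.74, so its mean describes neither.

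The TRAPP genes other than Trappc2 differed less. Trappc6a had 4158 in control and 2620 in siRNA cells in the top fraction, 3242 and 2821 in the light, and 2516 and 2473 in the heavy fraction. Its gap narrowed along the gradient, with log2 ratios of -0.67 ± 0.21, -0.19 ± 0.18 and -0.02 ± 0.20. Trappc6b, its paralog, stayed above 0 on all arrays, with ratios of 0.06 ± 0.15, 0.28 ± 0.14 and 0.49 ± 0.15. Trappc3, a core subunit, was the lowest TRAPP gene in the heavy fraction at -0.36 ± 0.15 and in heavy minus top at -0.11 ± 0.29, which became 0.17 with the software's ratio. Trappc5 rested on probes that differed by more than their errors in the top fraction, -0.96 ± 0.22 and 0.05 ± 0.31.

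Within COPI, the subunits did not share 1 pattern. Copa had log2 ratios of 0.19 ± 0.21, 0.38 ± 0.16 and -0.38 ± 0.15 from top through light to heavy. Copb2 stood at 0.16 ± 0.21, 0.24 ± 0.21 and -0.51 ± 0.21, and Cope, the epsilon subunit, at -0.13 ± 0.21, 0.25 ± 0.21 and -0.24 ± 0.21. All of these were above 0 in light and below 0 in heavy polysomes, while Copb1 was below 0 in both. Copz2 stood apart as the 1 COPI gene above 0 in the heavy fraction, at 0.18 ± 0.20, within its spot error of 0, and median centring put it at -0.04. Copg, listed today as Copg1 and coding for a gamma subunit, had 3 probes that disagreed in the heavy fraction, at -0.82 ± 0.23, 0.05 ± 0.20 and 0.39 ± 0.22, so its mean of -0.13 describes none of them.

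Within COPII, 8 of 9 genes lay between -0.61 and -0.14 in the heavy fraction. Sec24a, a cargo adaptor, was the 1 above 0, at 0.12 ± 0.15, with probes at -0.13 and 0.37, so it turned to -0.13 with its brighter probe alone, and it lay at 0.65 ± 0.16 in the light fraction. Sec24b, another adaptor, had the smallest heavy minus top difference of the group, at -0.08 ± 0.21. Its probes lay at -0.32 and 0.17, so this mean describes neither, and each other measured COPII gene rested on 1 probe in heavy minus top. Sec23a, the paralog of Sec23b, lay at -0.55 ± 0.16 in the heavy and 0.05 ± 0.22 in the light fraction, and Sec13 at -0.35 ± 0.15 and 0.28 ± 0.15. From top to light all 9 ratios went up, by 0.14 for Sec24c to 0.59 for Sec31a, with a median of 0.47 beside 0.00 over all 10684 genes. The rise was not particular to COPII: 36 of 43 members lay above 0 in light minus top, with a median of 0.27, against 50.5% of all genes. So did 8 of 9 p24 genes (median 0.32), 7 of 8 COPI (0.11), 6 of 8 TRAPP (0.13) and 4 of 6 Arf genes (0.26). No member of 43 passed 2-fold in light minus top, against 1.06% of all genes.

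Arf GTPases had a median of -0.24 in the heavy and 0.20 in the light fraction, with 5 of 6 lower in heavy than in light polysomes. Arf1, which recruits coatomer, had a heavy minus light difference of -0.55 ± 0.21. That of Arf6, which acts at the plasma membrane, was 0.17 ± 0.21 and became -0.25 with median centring. The Arf6 probes disagreed, at -0.09 and 0.43, so its mean describes neither. Arf5 was the lowest in the heavy fraction at -0.45 ± 0.21, with ratios of -0.31 ± 0.23 in the top and -0.36 ± 0.21 in the light. In heavy minus top all 6 Arf genes lay between -0.15 for Arf5 and 0.03 for Arf4. The SNARE gene Sec22b had ratios of -0.47 ± 0.16, -0.18 ± 0.15 and -0.27 ± 0.15, Sec22a of 0.02 ± 0.16, 0.24 ± 0.12 and 0.25 ± 0.12, and Sec22c of -0.09 ± 0.20, -0.05 ± 0.12 and 0.08 ± 0.12.

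The groups also lay at different places in the gradient of control cells. The log2 control signal of heavy over top had a median of 1.98 over COPII genes and 1.67 over COPI genes, with 15 of 17 past 2-fold towards the heavy fraction, against 15.4% of all genes. It was 0.74 over p24 genes, 1.12 over Arf genes and -0.07 over TRAPP genes, the same as over all 10723 genes, of which 36% passed 2-fold in either direction. Arf4 (3.07), Copb1 (3.04) and Sec24d (2.95) lay furthest towards the heavy fraction, next to Sec13 (2.94), and Trappc2l, a relative of Trappc2, furthest towards the top (-1.29). Each of these values rested on 1 probe. Over all genes with several probes, the SD among a gene's probes had a median of 0.52 for this value, so the order of near values is not firm. In siRNA cells the COPI median was 0.995, the COPII median 1.76, the p24 median 1.07 and the TRAPP median 0.21, with 34.8% of all genes past 2-fold. With the software's processed signals the control value of p24 was 0.05 and that of TRAPP -0.57, while the median of all genes moved to -0.43. The Arf median ran from 0.64 with those signals to 2.23 over the 4 genes with a bright probe. These values compare signals between arrays and rest on making their distributions alike.

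**Figure D4:**
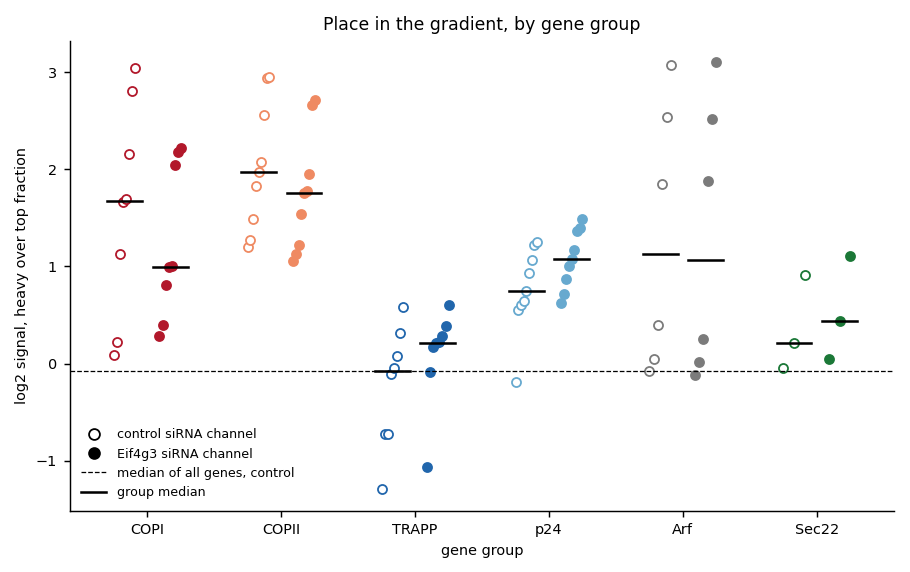
Log2 signal of heavy over top (y axis) by gene group (x axis), with open points for control and filled points for Eif4g3 siRNA, 1 point per measured gene and a bar at the group median. COPI medians stand at 1.67 and 0.995 and TRAPP medians at -0.07 and 0.21, and the dashed line is the control median of all genes, -0.07.

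Other genes of the route were taken from a list of 52, of which 44 were on the array and measured in light and heavy polysomes, and 39 in the top fraction. It covers cargo receptors, tethers, SNAREs and GTPase regulators. None passed 2-fold on any array or in heavy minus light or heavy minus top. Their median was -0.11 in the heavy, 0.01 in the light and -0.11 in the top fraction, -0.10 in heavy minus light and 0.06 in heavy minus top. Except in the top fraction, these medians lay nearer to 0 than those of COPI and of COPII. The highest in heavy minus top were Mcfd2, a partner of the cargo receptor Lman1, at 0.99 ± 0.30, and the SNARE Bet1 at 0.85 ± 0.21. The lowest were Scfd1, a regulator of SNARE assembly, at -0.55 ± 0.32, and Gbf1, an exchange factor for Arf1, at -0.44 ± 0.22. Arcn1, the delta subunit of coatomer that the name rule does not reach, lay at -0.21 ± 0.11 in the heavy fraction and -0.25 ± 0.15 in heavy minus light.

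**Figure D5:**
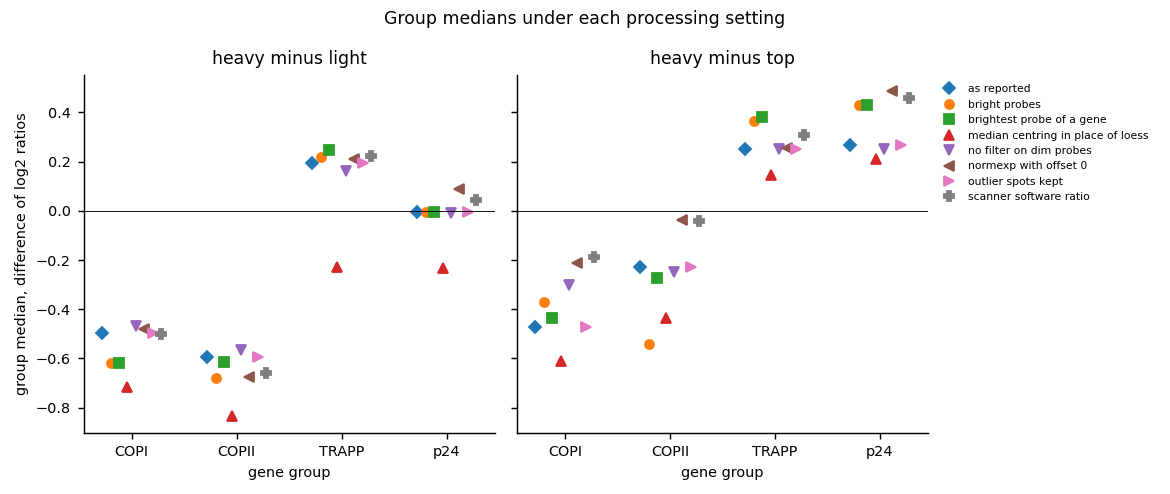
Group medians of the difference of log2 ratios (y axis) for 4 gene groups (x axis) under 8 processing settings, heavy minus light at left and heavy minus top at right. COPI and COPII medians stay below 0 in both panels, while the TRAPP median at left turns to -0.23 with median centring.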

How the data were processed

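The deposited scanner files hold, per the file headers, a linear intensity per spot and colour from Agilent Feature Extraction, version 10.5.1.1. The same deposited files give the software's log10 ratio of red over green and, as a score, its error, with marks for each spot. The values that the authors deposited beside them are log2 ratios, equal to those of the processed signals within 2.76e-06. Their scale and direction are thereby known, any centring beyond the software's is not given here, and the column medians were -0.09, -0.01 and 0.22 for top, light and heavy.

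Ratios were computed with limma 3.58.1 in R 4.3.3, with data.table (version 1.17.8): normexp background correction with an offset of 50, then loess within each array, control spots having weight 0. Dim spots are drawn towards a ratio of 0 by the offset: the slope on the software's ratio was 0.571 for top, 0.718 for light and 0.721 for heavy. Spots marked as outliers were left out, 220, 170 and 183 per array and 0 of them on members; 0 spots were saturated. A gene is the mean of its measured probes, and differences use probes measured on both arrays. The SD among a gene's probes had a median of 0.11, 0.16 and 0.15. Signals were set on 1 scale by Aquantile. A gene was called at 2-fold, a log2 value of 1 or -1. On simulated arrays, 40.5% (top, 14339 probes), 67% (light, 20659) and 91% (heavy, 21248) of 200 probes changed 3-fold were called, with 0 false calls. The simulated noise was small, with a smooth trend and no differences between cell pools or dye effects of single probes. The 0 false calls follow from that setting and give no rate of false calls for the real arrays.

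Alternatives were an offset of 0, the software's ratio, median centring, no filter on dim probes, bright probes alone, outlier spots kept, and the brightest probe of a gene. Keeping outlier spots could move no member value, as 0 were marked on members. Values were to be given for members past 2-fold, for the highest and lowest of each group in heavy and in heavy minus top, for members whose probes lay over 0.5 on both sides of 0 (none did), and for list genes highest and lowest in heavy minus top; other members named were chosen after their values were seen. Members and lists were chosen with earlier results of these data known. Probe sequences were not used here, so signal from a paralog on a probe was not tested. Of the 45 names all matched a RefSeq symbol, 1 under a newer name.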

Additional observations from a re-analysis of the deposited data

Results flagged for a closer look

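Copa, the alpha subunit of coatomer, had opposite directions in the polysome fractions: its log2 ratio was 0.38 in light and -0.38 in heavy polysomes, each at least 2 spot errors from 0, a difference of -0.75. Its probes lay at 0.04 and 0.72 in the light and at -0.32 and -0.44 in the heavy fraction, so the light value rests mostly on 1 of them. Sec31a, the cage subunit of COPII, ran the same way, from 0.77 in light to -0.61 in heavy polysomes, a difference of -1.38. With 1 array per fraction neither difference was tested. No group of 4 or more replicates existed in which a sample could stand apart.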

How the results depend on the processing

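Under the 7 alternatives, 77 of 91 counts and medians over all members stayed near the values given above, and 14 moved. Keeping outlier spots was bound to leave each of them unchanged, as 0 member spots were marked. A median counted as near when it moved by less than the median SD among a gene's probes. That SD was 0.11 in the top fraction and 0.52 for the control signal of heavy over top. Counts called near were equal to those given above. The count of members past 2-fold in the heavy fraction was 2 and became 1 with no filter on dim probes, because Copb1 then averaged -0.92. The share of all genes past 2-fold there was 0.812% and became 0.364%. In heavy minus light the count was 1 and became 5 with median centring, and 2 with bright probes or the brightest probe. The share of all genes was 0.731% and became 11.4%, 1.25% and 0.972% with those settings in turn. In heavy minus top the count was 1, Trappc2 higher, and became 0 with an offset of 0. It stayed at 1 with the software's ratio, but as Tmed4 higher (1.08), and with median centring, but as Copb1 lower (-1.02). With median centring the median of members there turned to -0.13. The share of all genes was 1.51% and became 3.14%, 4.25% and 2.55% with those settings in turn. In light the count was 1 and became 2 with median centring, with 1.28% of all genes in place of 0.688%. In light minus top the count was 0 and became 1 with the software's ratio or the brightest probe. The share of all genes was 1.06% and became 3.57% and 1.3%. In the top fraction the count was 0 and became 2 with an offset of 0 or the software's ratio. The share of all genes was 0.694% and became 1.75% and 2.71%. Median centring moved the median of members to -0.45 from -0.19 in heavy minus light, to 0.29 from 0.10 in light and to 0.52 from 0.27 in light minus top, and bright probes moved it to 0.19 from 0.02 in heavy minus top. The cause was not tested.

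Median centring moved the median of all genes by over 0.1 in light minus top, to 0.13 from 0.00. It also turned the split of calls: the share of all calls that were higher was 14% in heavy minus light and became 72.2%, with 11.4% of genes called in place of 0.731%. In light that share was 57.7% and became 84.5%, and in light minus top 30.1% and 76.5%. The software's ratio gave 40.4% in heavy minus light, 66% in heavy minus top (53.7% before) and 50.8% in top (61.8% before), and called 2.46% of genes in heavy in place of 0.812%.

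Sec31a in heavy minus light ranged from -1.76 to -1.35, Trappc2 in heavy from 1.22 to 1.55 and in light from 1.03 to 1.23, and Copb1 in heavy from -1.44 to -0.92. No paired analysis was possible because each fraction has 1 array, with no replicate. With 3 arrays in all, their number limits the precision, and dye bias cannot be told apart from the siRNA because no dye was swapped.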

Other observations

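Fibrillar collagens are cargo that leaves the ER through COPII carriers, and their mRNAs were measured in every fraction. Col1a1 had log2 siRNA ratios of -0.03 ± 0.12, -0.01 ± 0.12 and -0.55 ± 0.12 from top through light to heavy. Col1a2 stood at -0.29 ± 0.21, 0.34 ± 0.21 and -0.48 ± 0.21, and Col3a1 at -0.37 ± 0.21, -0.24 ± 0.15 and -0.50 ± 0.15. All 3 were lower with Eif4g3 siRNA in the heavy fraction, and none passed 2-fold. The ER to Golgi lectin Lman1 lay at 0.50 ± 0.15 in light and -0.11 ± 0.15 in heavy polysomes, and Ergic3, a protein of the compartment between ER and Golgi, was the lowest of the listed route genes in the heavy fraction at -0.83 ± 0.22. These genes were chosen after their values were seen.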
